A study of Mus musculus with 11 samples.

Results

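Acta2, Tagln, Pdgfrb, Thy1 and S100a4, genes used as markers of contractile and stromal cells, were read in 6 mouse mammary tumor cell lines. The 5 genes were taken by name from a deposited table of 4461 genes, and each name had 1 row. They were chosen with earlier results of these data known. Acta2 encodes smooth muscle alpha-actin, the actin of contractile filaments in smooth muscle, myoepithelial cells and activated fibroblasts, and Tagln encodes transgelin, an actin-binding protein of the same cells. Pdgfrb encodes the platelet-derived growth factor receptor beta, a receptor tyrosine kinase of fibroblasts and of the mural cells that wrap small vessels. Thy1 encodes a surface glycoprotein held by a lipid anchor and used to sort fibroblasts, and S100a4 encodes a small calcium-binding protein, also called fibroblast-specific protein, that tumor cells and macrophages make too. In the mammary gland the contractile genes belong to the basal, myoepithelial layer of the ducts, and all of these genes are read in tumors as signs of stroma or of epithelial cells that have taken on mesenchymal features.

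All lines were grown from mammary tumors of female MMTV-NIC mice, whose transgene places an activated ErbB2 (Neu) and the Cre recombinase under a promoter active in mammary epithelium. The NIC/Cpt1a L/L group, labelled NIC/conditional Cpt1a KO, also carried floxed alleles of Cpt1a, the enzyme that admits long-chain fatty acids into mitochondria, and comprised the lines KO_1922, KO_1925, KO_2768 and KO_4258. The NIC/Cpt1a+/+ group, labelled NIC/wild-type, carried the transgene with intact Cpt1a and comprised WT_5257 and WT_8905. The tumors were taken 8 weeks after they could be felt, the cells received no treatment, and each line had duplicate libraries except KO_2768, for which 1 library was used, giving 11 libraries. The cell line was the replicate, 4 against 2. The mice's ages were not given in the sources used here, and the Cpt1a and Erbb2 transcripts themselves are not analysed here.

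Recovered totals were 18247312 to 25386785 reads per NIC/Cpt1a L/L library and 15199378 to 17372643 per control library, so the controls were the shallower group. The table had been selected by its authors for a difference between these same libraries, so its genes differed between the genotypes by construction, the 5 genes included. Levels below are FPKM (reads scaled to gene length and library total), the scale used between genes, or CPM (reads scaled to the TMM-adjusted line total), the scale used between lines. In edgeR's quasi-likelihood test of line sums, 71 of 4268 tested genes were raised in NIC/Cpt1a L/L lines (1.66%) and 148 lowered (3.47%) at an adjusted p under 0.05, and the median log2 difference of all tested genes was 0.49. In edgeR these counts were 294 and 347 without KO_4258, and 0 and 0 without KO_1922, KO_1925 or WT_5257, where 533 and 953, 613 and 833, and 301 and 712 genes were higher and lower at an unadjusted p under 0.05. Adjusted over all 49997 genes of the reference table, 0 genes passed in either direction, where 917 genes were higher (21.5%) and 1237 lower (29%) at an unadjusted p under 0.05.

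Promoter sequence is shown for the genes with a RefSeq window on GRCm38.p6, 2 of the 5 (Acta2 and S100a4), to show what stands before the starts of the most abundant of the 5 genes and of the main contractile gene. For S100a4 the 250 bases before its start are printed from the plus strand of chr3:90603520-90603769, with the TATA-box letters TATAAA and the SMAD letters CAGAC in capitals.
S100a4 upstream: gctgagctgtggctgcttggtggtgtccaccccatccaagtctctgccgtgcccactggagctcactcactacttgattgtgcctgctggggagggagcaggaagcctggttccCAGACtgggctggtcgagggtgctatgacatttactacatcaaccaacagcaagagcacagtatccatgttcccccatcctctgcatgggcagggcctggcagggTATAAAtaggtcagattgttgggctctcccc
For Acta2, runs of 30 bases from the minus strand are printed around the matches to the CArG box, the site of serum response factor, that differ from it by 1 G or C among its 6 inner bases, with the matches in capitals. They lie at chr19:34255438-34255467 and chr19:34255388-34255417.
Acta2 upper: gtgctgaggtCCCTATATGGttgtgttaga
Acta2 lower: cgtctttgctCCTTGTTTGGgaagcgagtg

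The matches start at positions -84 and -34 of Acta2 and, for S100a4, TATAAA starts at position -31 and CAGAC at -136. Positions are counted from the RefSeq start. For Acta2 that start lies upstream of the gene boundary given below, so distances from that boundary are larger. No exact CArG box was found in either window. Both strands of all 32851 windows were searched: 1.63% held an exact CArG box, 8.5% the looser form, which was added after the Acta2 letters were seen, 13.6% held TATAAA and 49.6% held CAGAC or its reverse complement GTCTG. The Acta2 window also held GTCTG at -235 and GGAATG at -146, a TEAD motif found with its complement CATTCC in 14.7% of windows. These matches describe letters and not binding.

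Across the 6 lines the 5 genes fell into 3 patterns. Reads of Acta2, Pdgfrb and Thy1 were concentrated in KO_2768, were fewer in KO_1922 and KO_1925, and were at or near 0 in KO_4258 and in both control lines. Every NIC/Cpt1a L/L line had less Tagln than either control line, and every one had more S100a4. By edgeR's test of lines 0 of the 5 genes were raised and 0 lowered at an adjusted p under 0.05, against the 1.66% and 3.47% of all tested genes given above. S100a4 alone had an unadjusted p under 0.05, DESeq2 by line called Acta2, Pdgfrb, Thy1 and S100a4 raised, and limma-voom with the line as a random block called 0 of the 4 genes it fitted. Since these are bulk libraries, fewer cells with a gene's RNA and less RNA per cell cannot be told apart.

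**Figure D1:**
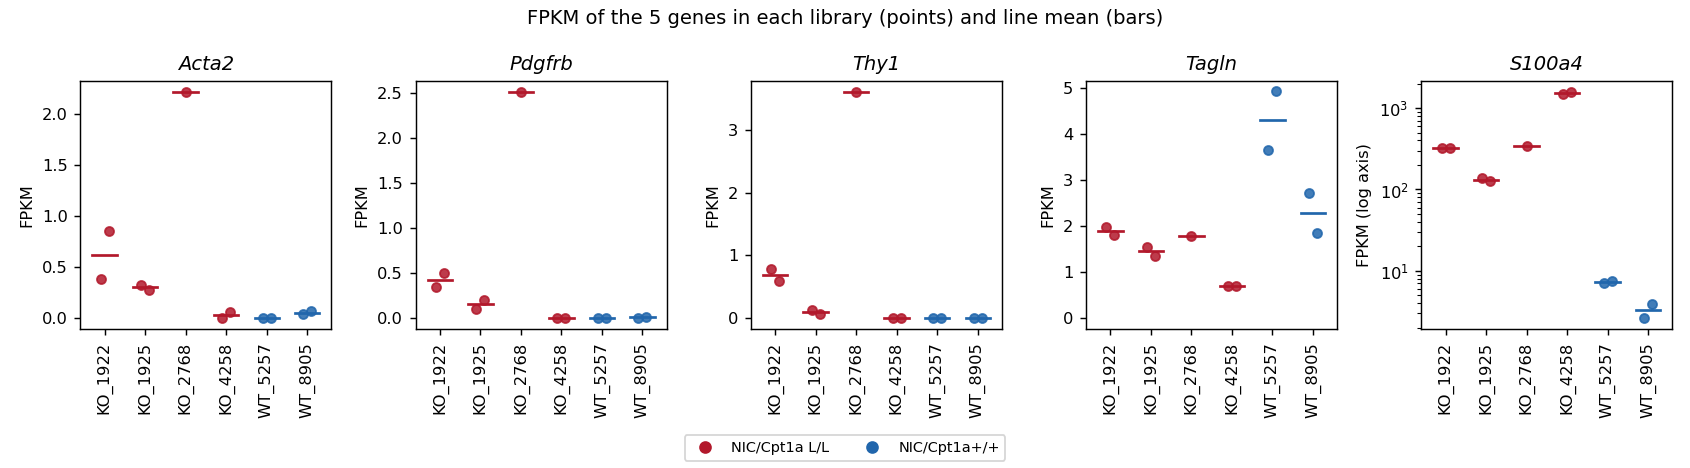
FPKM (vertical axis, linear except for S100a4, where it is logarithmic) of each of the 5 genes in every library, grouped by cell line, with a bar at the mean of a line's libraries. The points of Acta2, Pdgfrb and Thy1 are highest in KO_2768 and at or near 0 in KO_4258 and the control lines, Tagln is highest in WT_5257, and S100a4 separates the genotypes with KO_4258 on top.

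Acta2 (ENSMUSG00000035783, minus strand, mm10 chromosome 19 from 34241090 to 34255336) was counted at 14 and 28 reads in the KO_1922 libraries, 11 and 9 in KO_1925, 100 in KO_2768 and 0 and 2 in KO_4258. The control libraries held 0 and 0 reads in WT_5257 and 1 and 2 in WT_8905. KO_4258 overlapped the controls, whereas the other 3 NIC/Cpt1a L/L lines lay above both. By line the mean level was 2.21 FPKM in KO_2768, 0.614 in KO_1922, 0.300 in KO_1925, 0.0512 in WT_8905, 0.0277 in KO_4258 and 0 in WT_5257. In this order WT_8905 did not differ from KO_4258, nor KO_4258 from WT_5257, beyond the range of their duplicates. The group levels were 1.37 ± 1.72 CPM (SD, n = 4) and 0.0468 ± 0.0662 CPM (SD, n = 2), so the SD among NIC/Cpt1a L/L lines exceeded their mean. The log2 difference was 4.76 with a standard error of 2.21 and did not pass (edgeR, adjusted p = 0.115 over the table, 1 over the reference genes; exact permutation p = 0.267, two-sided). With 15 assignments of lines and the smaller tail doubled, this test cannot go below 0.133.

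Pooled over reads, Acta2 was 24.4 times as frequent in NIC/Cpt1a L/L as in control libraries, with an exact 95% interval from 8.22 to 120 that covers counting error only. KO_2768 gave 61.0% of those reads, and without it the ratio was 11.5 (3.77 to 57.4). For KO_4258 alone the ratio was 0.977 (0.0816 to 8.53), an interval that includes no difference. The comparison of Acta2 thus rested on 164 reads in NIC/Cpt1a L/L libraries and 3 in the controls.

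Tagln (ENSMUSG00000032085, minus strand, mm10 chromosome 9 from 45929628 to 45936058) ran the other way. The libraries of KO_1922 held 65 and 53 reads, KO_1925 held 47 and 39, KO_2768 held 72 and KO_4258 held 27 and 22, against 88 and 136 in WT_5257 and 72 and 48 in WT_8905. After scaling to depth, each NIC/Cpt1a L/L line lay below each control line, with KO_4258 lowest. The line means were 4.29 FPKM in WT_5257, 2.28 in WT_8905, 1.89 in KO_1922, 1.79 in KO_2768, 1.45 in KO_1925 and 0.689 in KO_4258. WT_8905 and KO_1922 were neighbours whose duplicates overlapped, at 1.85 FPKM for the lower WT_8905 library and 1.98 for the higher KO_1922 library. Tagln averaged 2.26 ± 0.802 CPM (SD, n = 4) in NIC/Cpt1a L/L and 5.41 ± 2.35 CPM (SD, n = 2) in control lines, a ratio of 2.40 in favour of the controls. The log2 difference of -1.26 (standard error 0.57) did not pass (edgeR, adjusted p = 0.112 over the table, 1 over the reference genes; exact permutation p = 0.133, two-sided, the smallest this test allows). Of all tested genes, 38.2% were likewise lower in all 4 lines.

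In pooled reads Tagln stood at 0.422 of the control share (exact 95% interval 0.362 to 0.493, counting error only). Single lines ranged from 0.209 (0.151 to 0.282) in KO_4258 to 0.574 (0.461 to 0.709) in KO_1922. Each interval lay under 1, and that of KO_4258 did not overlap those of the other 3 lines. Tagln shares 108 exon bases with Pcsk7, which lies on the opposite strand, and 1241 with the antisense gene Gm48529, and whether counting used strand is not given in the sources used here. Pcsk7, a proprotein convertase gene, had 49.0 ± 7.27 CPM (SD, n = 4) in NIC/Cpt1a L/L and 92.5 ± 24.1 CPM (SD, n = 2) in control lines. Reads of an overlapping gene therefore cannot be told apart from those of Tagln, and their part in its values was not tested.

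Pdgfrb (ENSMUSG00000024620, plus strand, mm10 chromosome 18 from 61045150 to 61085061) had 345 reads in the KO_2768 library, 38 and 50 in KO_1922 and 10 and 20 in KO_1925. Both KO_4258 libraries and both WT_5257 libraries held 0 reads, and WT_8905 held 0 and 1. Thus 3 NIC/Cpt1a L/L lines lay above both controls and the fourth at their level. Its order was 2.51 FPKM in KO_2768, 0.418 in KO_1922, 0.149 in KO_1925, 0.00565 in WT_8905 and 0 in KO_4258 and WT_5257. The last 3 lines did not differ beyond the range of their duplicates. Pdgfrb averaged 4.07 ± 6.26 CPM (SD, n = 4) against 0.0156 ± 0.0221 CPM (SD, n = 2), a log2 difference of 7.73 with a standard error of 3.32 that did not pass (edgeR, adjusted p = 0.105 over the table, 1 over the reference genes; exact permutation p = 0.4, two-sided). The pooled ratio was 207, and the single control read left it between 37.0 and 8192 (exact 95% interval, counting error only). KO_2768 supplied 74.5% of the NIC/Cpt1a L/L reads, and without it the ratio was 63.8 (11.2 to 2540).

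Thy1 (ENSMUSG00000032011, plus strand, mm10 chromosome 9 from 44043384 to 44048579) was counted at 159 reads in KO_2768, 28 and 19 in KO_1922 and 4 and 2 in KO_1925. All 4 control libraries and both KO_4258 libraries held 0 reads. A count of 3, taken as the floor, allows up to 0.0947 CPM in WT_5257, 0.0937 in WT_8905 and 0.0690 in KO_4258. The line means were 3.61 FPKM in KO_2768, 0.685 in KO_1922, 0.0918 in KO_1925 and 0 in the other 3 lines, which cannot be ordered. The mean was 1.87 ± 2.91 CPM (SD, n = 4) in NIC/Cpt1a L/L lines, and the difference from the controls did not pass (edgeR, adjusted p = 0.115 over the table, 1 over the reference genes; exact permutation p = 0.4, two-sided). The fitted log2 difference of 9.04 (standard error 4.02) depends on the small count edgeR adds and is no bound. Against a floor of 3 counts over the control group, Thy1 was at least 31.6-fold higher in NIC/Cpt1a L/L reads, at least 9.55-fold without KO_2768, which gave 75.0% of them, and at least 137-fold in KO_2768 alone. In KO_1925, with 6 reads, the same bound was 3.51-fold.

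S100a4 (ENSMUSG00000001020, plus strand, mm10 chromosome 3 from 90603770 to 90606045) was the most abundant of the 5 genes in every line. Its libraries held 3375 and 2976 reads in KO_1922, 1315 and 1151 in KO_1925, 4360 in KO_2768 and 18203 and 15772 in KO_4258. Control libraries held 54 and 64 reads in WT_5257 and 22 and 32 in WT_8905. The genotypes did not overlap, and the lowest NIC/Cpt1a L/L library, at 127 FPKM, stood above the highest control library, at 7.40 FPKM. The line means were 1527 FPKM in KO_4258, 345 in KO_2768, 325 in KO_1922, 132 in KO_1925, 7.27 in WT_5257 and 3.29 in WT_8905. No neighbours with duplicates overlapped, though KO_2768, next to KO_1922, had 1 library and no duplicate range. KO_4258 and KO_1925 differed 12.1-fold within the genotype.

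S100a4 averaged 292 ± 329 CPM (SD, n = 4) in NIC/Cpt1a L/L and 2.71 ± 1.44 CPM (SD, n = 2) in control lines, 108-fold apart. The log2 difference of 6.75 (standard error 1.45) missed the threshold (edgeR, adjusted p = 0.0536 over the table, 0.628 over the reference genes; exact permutation p = 0.133, two-sided, the smallest this test allows). Without KO_4258, the line with 72.1% of the reads, the log2 difference was 5.58 (standard error 0.71) and passed over the table (edgeR, adjusted p = 0.0281, within a range of 1.39e-09 to 0.628 over the alternatives). Across all tested genes 35.1% were higher in all 4 lines, as S100a4 was. The pooled ratio was 123 (exact 95% interval 105.5 to 143, counting error only), and 49.3 (42.4 to 57.6) without KO_4258. Single lines gave 25.2 in KO_1925, 61.8 in KO_1922, 65.5 in KO_2768 and 289 in KO_4258. The Gm42674 model on the same strand shares 302 exon bases with S100a4, so reads there could be split between them in counting.

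**Figure D2:**
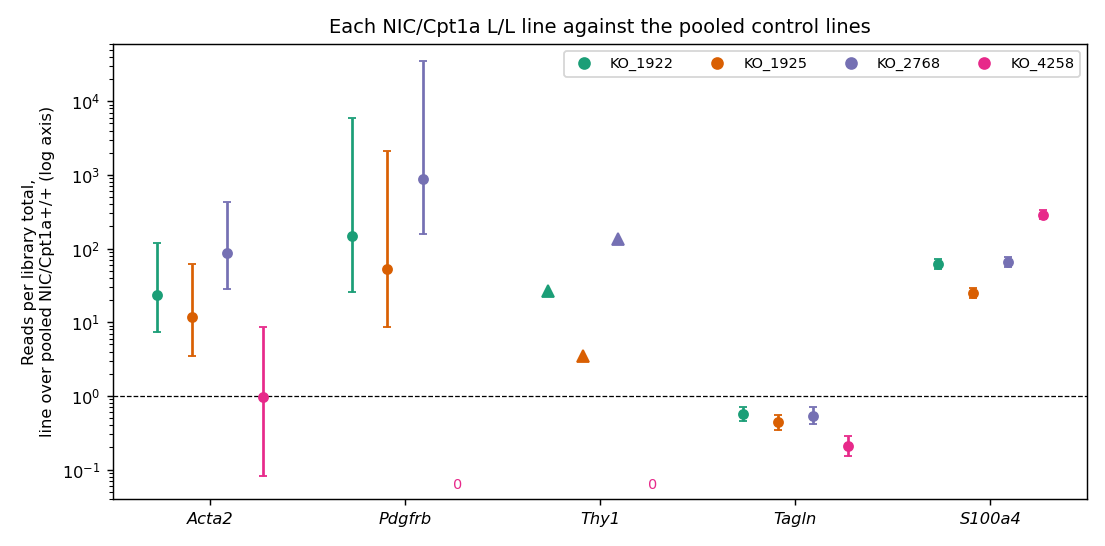
Ratio of the share of library reads in each NIC/Cpt1a L/L line to that in the pooled control lines (vertical axis, logarithmic) for the 5 genes (horizontal axis), with exact 95% counting intervals as bars. Triangles are lower bounds where the controls held 0 reads, a printed 0 marks a line with 0 reads, and the dashed line marks equal shares: KO_4258 is at 0.977 for Acta2, has no reads of Pdgfrb or Thy1, and is lowest for Tagln and highest for S100a4.

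Per length, the order of the 5 genes differed between lines. In KO_2768, S100a4 at 345 FPKM was followed by Thy1 at 3.61, Pdgfrb at 2.51, Acta2 at 2.21 and Tagln at 1.79. In KO_4258, S100a4 at 1527 FPKM was followed by Tagln at 0.689 and Acta2 at 0.0277, with Pdgfrb and Thy1 at 0. In WT_5257, S100a4 at 7.27 FPKM and Tagln at 4.29 were the only ones of the 5 genes with reads. Over the 6 lines the log2 CPM of Acta2, Pdgfrb and Thy1 went together, with Pearson's r of 0.989 for Acta2 and Pdgfrb, 0.980 for Pdgfrb and Thy1 and 0.962 for Acta2 and Thy1. Tagln, a contractile gene like Acta2, had r of -0.195 with it, and its r with S100a4 was -0.823. These coefficients describe 6 points that share the genotype split by which the table was chosen.

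The genes most like each of the 5, by Pearson's r of log2 CPM over the 6 lines among genes with at least 1 FPKM in a line, were named 3 apiece. For Acta2 they were Ascc3 (r = 0.996), Rnase4 (0.994) and P2ry6 (0.993), and for Pdgfrb Rnase4 (0.999), Gypc (0.997) and Rab36 (0.997). Rnase4, a secreted ribonuclease gene, had 24.9 FPKM in KO_2768, 2.46 in KO_1922, 0.775 in KO_1925, 0.0136 in KO_4258, 0 in WT_5257 and 0.0329 in WT_8905. Ascc3, a helicase gene, stayed between 8.31 and 11.4 FPKM in the 6 lines, so likeness in shape did not mean likeness in size. Thy1 was closest to Gng2 (0.999), the pseudogene Gm7582 (0.996) and Ereg (0.993). Ereg, which encodes the growth factor epiregulin, had 1.79 FPKM in KO_2768, 0.653 in KO_1922, 0.0445 in KO_1925 and 0 in the other 3 lines. Tagln was closest to Apmap (0.999), Rabep2 (0.996) and Bcl2l14 (0.996), and S100a4 to Rnf19b (0.991), Pgk1-rs7 (0.986) and Lhfp (0.986). Computed over the 11 libraries, 10 of these 15 places were filled by the same genes.

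Other contractile genes of the table went in both directions, at shares near those of all tested genes. Of 33 genes listed for smooth muscle and myoepithelial contraction, 10 were in the table, 8 beside Acta2 and Tagln, and all 8 were tested. Of these, 3 were higher in each of the 4 NIC/Cpt1a L/L lines, 3 lower in all 4, and 2 overlapped, beside 35.1% higher and 38.2% lower of all tested genes, with a median log2 difference of 0.94 beside 0.49 for all tested genes. By edgeR 0 passed, where 2 were higher and 3 lower at an unadjusted p under 0.05, DESeq2 by line called 3 and 3, and limma-voom 1 and 3. The transgelin relative Tagln2 had 361 FPKM in KO_1922, 347 in KO_1925, 200.1 in KO_2768 and 227 in KO_4258, against 27.8 in WT_5257 and 169 in WT_8905. It was higher in all 4 lines, the reverse of Tagln, with a log2 difference of 1.45 (standard error 0.73; edgeR, adjusted p = 0.128). Fhl2, a LIM-domain cofactor, had 14.4 to 55.7 FPKM in NIC/Cpt1a L/L and 1.48 and 8.40 in control lines (adjusted p = 0.0843).

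Itga8 and Lmod1 were among the contractile genes lower in all 4 lines, and Lmod1, not one of the 4 most abundant, was named after its values were seen. Itga8, an integrin subunit of smooth muscle and myofibroblasts, had 5.37 to 14.9 FPKM in NIC/Cpt1a L/L lines and 41.4 and 33.0 in the controls, a log2 difference of -1.90 (standard error 0.40; edgeR, adjusted p = 0.0515). Lmod1, which encodes the actin nucleator leiomodin of smooth muscle, had 1.69 FPKM in KO_1922, 0.420 in KO_1925, 4.04 in KO_2768 and 0.191 in KO_4258, against 21.5 and 13.8 in the controls (log2 difference -3.56, standard error 1.13; adjusted p = 0.0763). Lmod1 had its lowest level in KO_4258, the line where Tagln was lowest. Itga8 did not share this, as KO_4258 at 14.9 FPKM was its highest of the 4 NIC/Cpt1a L/L lines. The other actin in the table, the skeletal Acta1, was at 0.526 FPKM in KO_1922 and at most 0.186 in every other line, and did not pass the filter. The remaining actin genes are not analysed here.

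Serum response factor and its partners drive Acta2 and Tagln in smooth muscle, and 11 of 26 listed regulators and targets of this kind were in the table. Of the 11 tested, 9 were higher and 1 lower in each of the 4 NIC/Cpt1a L/L lines, with a median log2 difference of 2.37. Of all tested genes, 35.1% were higher and 38.2% lower in all 4 lines, with a median of 0.49. By edgeR 2 of the 11 were raised, beside 1.66% of all tested genes. Itga5, an integrin subunit that binds fibronectin, was raised with 6.87 to 24.6 FPKM against 0.0357 and 0.103 (log2 difference 7.33, standard error 1.03; edgeR, adjusted p = 0.0344 over the table, 0.403 over the reference genes). Filip1l was raised with 13.2 to 20.1 FPKM against 0.670 and 2.66 (log2 difference 3.17, standard error 0.62; edgeR, adjusted p = 0.0479 and 0.561), and 0 were lowered, where 1 was lower at an unadjusted p under 0.05, 1 in DESeq2 and 0 in limma-voom. Both were named after their values were seen. Ctgf, a matricellular protein gene, had 332 FPKM in KO_1922, 413 in KO_1925, 30.7 in KO_2768 and 669 in KO_4258 against 7.73 and 21.5 in the controls, and did not pass (adjusted p = 0.0710). KO_2768, highest for Acta2, was the lowest of the 4 lines for Ctgf but the highest for Itga5, at 24.6 FPKM. Of the 11 genes, 3 had their highest FPKM in KO_2768, beside 16.7% of all tested genes. Another 4 were highest in KO_1922, 1 in KO_1925, 2 in KO_4258 and 1 in WT_5257.

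Most other fibroblast and stromal markers of the table had their highest level in KO_2768, as Pdgfrb and Thy1 did. Of 42 listed genes 24 were in the table, 21 beside Pdgfrb, Thy1 and S100a4, and 15 of the 21 had their highest FPKM in KO_2768, against 16.7% of all tested genes. Summed over the 21 genes, the level was 2676 FPKM in KO_2768, 1102 in KO_1925, 715 in KO_1922, 525 in KO_4258, 34.4 in WT_5257 and 64.3 in WT_8905. Ly6a alone, described below, gave 499 of the 525 FPKM in KO_4258, but 1.54 and 9.95 FPKM in the controls. The sum of KO_4258 is therefore mostly the level of 1 gene. At least 1 FPKM was reached by 18 of the 21 in KO_2768, 10 in KO_1922, 8 in KO_1925 and 4 in KO_4258, and by 4 and 5 in the controls. In KO_4258, where Pdgfrb and Thy1 had 0 reads, 16 of the 21 lay under 0.1 FPKM. The count of genes highest in KO_2768 was chosen after the values were seen.

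Dcn, which encodes the matrix proteoglycan decorin and is a defining fibroblast gene, had 737 FPKM in KO_2768, 0.483 in KO_1925, 0.0784 in KO_1922 and 0 in KO_4258 and both controls. Its profile across lines was steeper than that of Pdgfrb or Thy1. Cd34, a sialomucin of stromal and vascular cells, had 227 FPKM in KO_2768 and at most 1.38 in every other line. Fn1, the fibronectin gene, had 558 FPKM in KO_2768, 345 in KO_1925 and 243 in KO_1922, against 0 in KO_4258 and 1.09 and 3.13 in the controls. Fbln2, a matrix fibulin, had 201 FPKM in KO_1925, 156 in KO_2768, 125 in KO_1922 and 8.00 in KO_4258, against 0.126 and 18.8. The matrix genes Col6a1 and Lox, named after their values were seen, had 75.4 and 130.1 FPKM in KO_2768, and at most 0.566 and 20.7 in every other line. Vim, Col1a1, Pdgfra and Fap are not analysed here. Whether the stromal genes of KO_2768 have a part in the levels of Acta2, Pdgfrb and Thy1 was not tested.

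By the test of lines 2 of these 21 genes were raised and 1 lowered, against 1.66% and 3.47% of all tested genes. The median log2 difference of the 21 was 7.35, or 6.37 with the 6 genes of 0 control reads set at their lower bounds. For all tested genes it was 0.49 either way. Ly6a, a lipid-anchored surface protein (Sca-1) of stromal and progenitor cells, was raised at 287 FPKM in KO_1922, 520 in KO_1925, 652 in KO_2768 and 499 in KO_4258, against 1.54 and 9.95 (log2 difference 6.35, standard error 1.01; edgeR, adjusted p = 0.0403 over the table, 0.472 over the reference genes). Bgn, the proteoglycan biglycan, had 0 reads in all control libraries and was raised (edgeR, adjusted p = 0.0344 and 0.403), at least 96.2-fold against the floor of 3 counts over the group. Twist1, a transcription factor of mesenchymal cells, was lowered, at 14.7 to 17.0 FPKM against 29.0 and 28.0 (log2 difference -0.95, standard error 0.17; edgeR, adjusted p = 0.0471 and 0.552). Bgn and Twist1 were named after their values were seen. Unlike Acta2, Pdgfrb and Thy1, all 3 reached in KO_4258 a level like that of KO_1922, KO_1925 and KO_2768. Of the 21 genes, 6 were higher in all 4 lines, 2 lower in all 4 and 13 overlapped. Of all tested genes, 35.1% were higher and 38.2% lower in all 4.

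**Figure D3:**
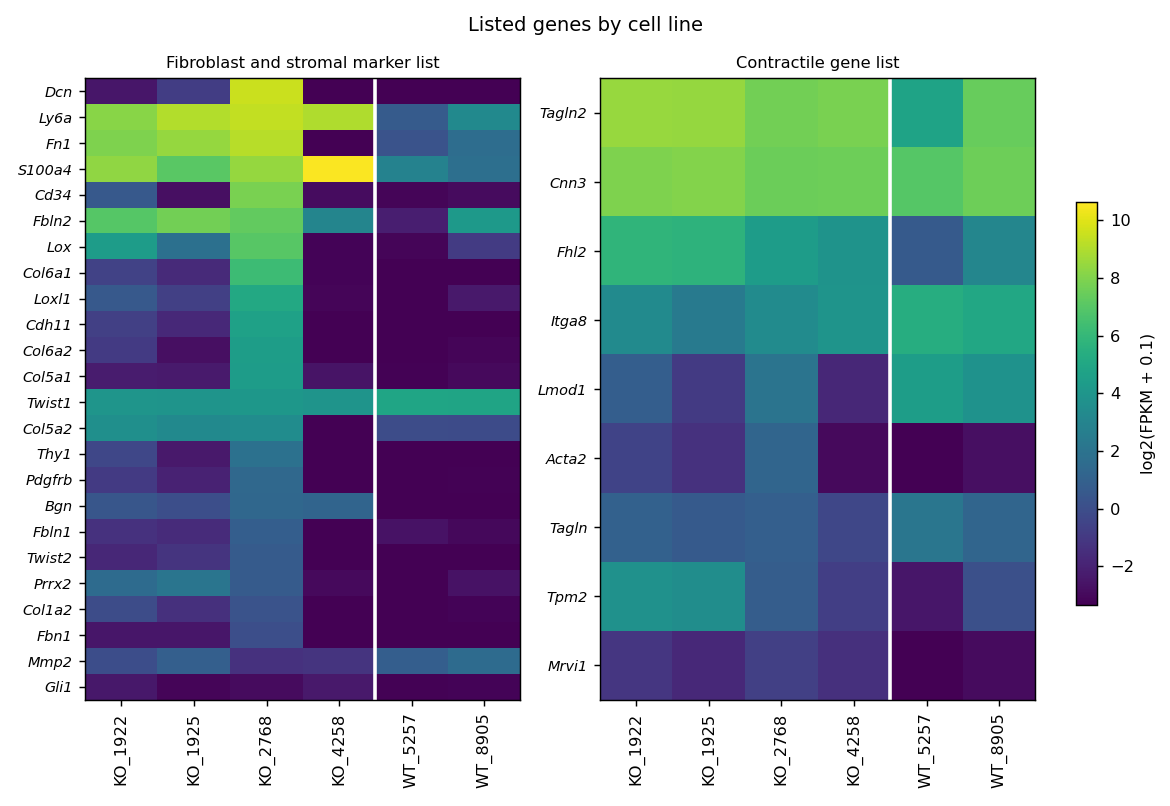
Colour gives log2(FPKM + 0.1) of genes of the fibroblast and stromal list (left) and of the contractile list (right) that are in the table, with 1 contractile gene left out, in the 6 cell lines (columns, controls right of the white line), with genes ordered by their level in KO_2768. The KO_2768 column is brightest for Dcn, Cd34, Col6a1, Pdgfrb and Thy1, KO_4258 is dark for most stromal genes, with S100a4, Ly6a and Twist1 among the exceptions, and Tagln, Itga8 and Lmod1 are brighter in the controls.

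The 2 tested markers of mural cells, which carry Pdgfrb in vessels, did not go with it. Of 15 listed genes 4 were in the table, 3 beside Pdgfrb. Both that were tested were lower in all 4 NIC/Cpt1a L/L lines, as were 38.2% of all tested genes. Notch3, the mural cell Notch receptor, was lowered at 3.94 FPKM in KO_1922, 3.91 in KO_1925, 4.88 in KO_2768 and 5.35 in KO_4258, against 16.3 and 23.3 in the controls (log2 difference -2.19, standard error 0.24; edgeR, adjusted p = 0.0231 over the table, 0.271 over the reference genes). Rgs5, a pericyte gene that was not tested, had 32 reads in KO_1922, 3 to 5 in KO_1925, KO_2768 and KO_4258 and 0 in the controls. Its few reads thus lay in NIC/Cpt1a L/L lines, as those of Pdgfrb did, but with KO_1922 and not KO_2768 highest. Endothelial markers were few, with 2 of 19 in the table and a summed level of 0.702 to 1.48 FPKM in NIC/Cpt1a L/L and of 4.79 and 0.464 in control lines. Pecam1 and Cdh5 are not analysed here.

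Among ligands and receptors related to Pdgfrb, Pdgfb and Csf1r were in the table beside it, of 10 listed. Pdgfb, a ligand of the receptor, had 34.6 FPKM in KO_1922, 29.96 in KO_1925, 11.4 in KO_2768 and 11.1 in KO_4258, against 1.98 in WT_5257 and 13.2 in WT_8905. It overlapped between the genotypes (log2 difference 1.44, standard error 0.90; edgeR, adjusted p = 0.178), and its order in the NIC/Cpt1a L/L lines was not that of Pdgfrb. Csf1r, a receptor of the same class and a macrophage marker, starts 20510 bases after the end of Pdgfrb on chromosome 18. Csf1r had 64.4 FPKM in KO_4258, where Pdgfrb had 0 reads, 3.74 in KO_1925, 0.897 in KO_1922 and 0.0168 in KO_2768, where Pdgfrb was highest, against 0.00700 and 0.0895 in the controls. Of 30 listed blood cell markers Csf1r, S100a9 and Cd74 were in the table, with a summed level of 5.31 to 65.3 FPKM in NIC/Cpt1a L/L and 0.0303 and 0.474 in control lines. Ptprc and Lyz2 are not analysed here, and the part of such cells in the S100a4 level of KO_4258 was not tested.

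Of 14 surface proteins listed with Thy1 among them, 6 were in the table. Of the 5 beside Thy1, 4 were higher in all 4 NIC/Cpt1a L/L lines, as were 35.1% of all tested genes. Cd34, 1 of the 4, had only 5 reads in KO_1925 and 5 in KO_4258, against 1 and 3 in the controls. Ly6a, given above, passed the test. Ly6c1, another lipid-anchored protein of the Ly6 family, had 412 FPKM in KO_2768, 175 in KO_1925, 64.1 in KO_1922 and 3.75 in KO_4258, against 1.06 and 3.02 (log2 difference 6.27, standard error 2.06; edgeR, adjusted p = 0.0779). Its highest line was that of Thy1, and its level in KO_4258 lay above that of both controls. Itgb3, an integrin subunit, was highest in the control line WT_8905 at 9.31 FPKM and at most 0.640 elsewhere.

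Relatives of S100a4 in the table all had a positive log2 difference, and none passed the test. Of 18 listed genes of the S100 name 10 were in the table, 9 beside S100a4. Of these 9, 6 were higher in each of the 4 NIC/Cpt1a L/L lines, beside 35.1% of all tested genes, and 3 overlapped. All 9 had a positive log2 difference (58.6% of all tested genes), with a median of 4.08. By edgeR 0 passed, where 7 were higher and 0 lower at an unadjusted p under 0.05, DESeq2 by line called 7 raised and limma-voom 2. On mm10, 8 of the genes lie on chromosome 3 between 90526849 and 93564643, and S100a4 begins 1067 bases after S100a3. S100a3 had 18.2 FPKM in KO_4258, 8.43 in KO_1922, 7.91 in KO_1925 and 1.22 in KO_2768, against 0.635 and 0.936 (log2 difference 3.45, standard error 1.19; edgeR, adjusted p = 0.0831). Like S100a4 it was highest in KO_4258, but KO_2768 and KO_1925 stood in another order.

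S100a6, which encodes the calcium-binding calcyclin, had 757 FPKM in KO_1922, 1216 in KO_1925, 567 in KO_2768 and 1185 in KO_4258, against 12.8 in WT_5257 and 92.5 in WT_8905. Its log2 difference of 4.08 (standard error 0.95) did not pass (edgeR, adjusted p = 0.0590). S100a10, the partner of annexin A2, differed least among those higher in all 4 lines, apart from S100pbp, which encodes an S100-binding protein and not a family member: 657 to 696 FPKM against 308 and 432 (log2 difference 0.80, standard error 0.20; adjusted p = 0.0619). S100a14 had 604 FPKM in KO_4258, 129 in KO_1925 and 106 in KO_1922, but 2.15 in KO_2768, between the controls at 0.761 and 5.90. S100b, a marker of glial and other cells, had the reverse order, with 13.6 FPKM in KO_2768 and 0.0578 in KO_4258. The inflammatory genes S100a9 and S100a7a reached 6.75 FPKM in KO_2768 and 29.9 in KO_4258, respectively, and S100a11 overlapped, at 493 to 896 against 543 and 423.

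**Figure D4:**
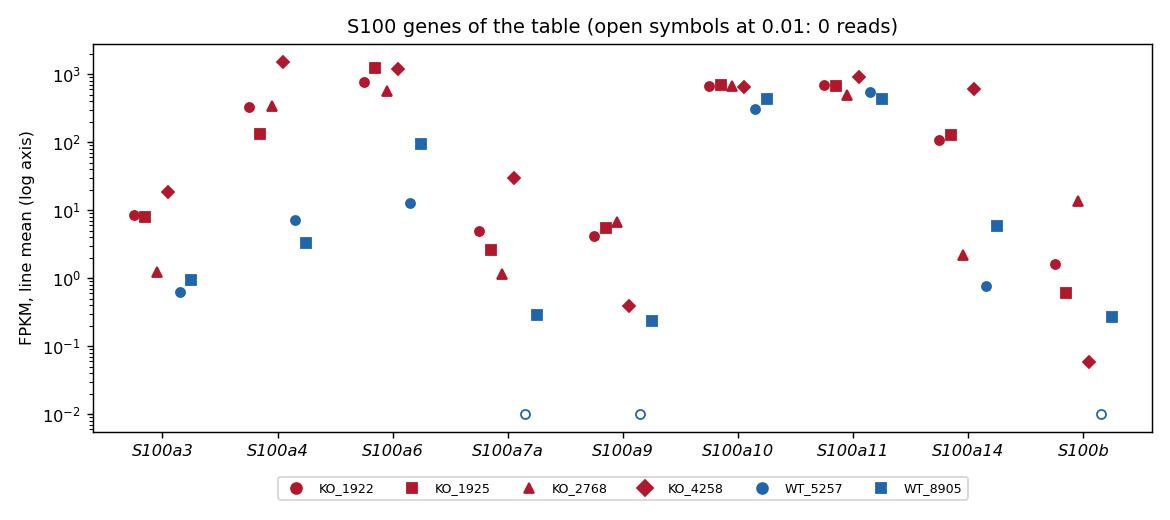
Mean FPKM of each line (vertical axis, logarithmic) for the 9 S100 family genes of the table (horizontal axis), with NIC/Cpt1a L/L lines in red and control lines in blue. S100a3, S100a4, S100a7a, S100a11 and S100a14 have their highest point in KO_4258 and S100b in KO_2768; open symbols at 0.01 stand for 0 reads.

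The lines were labelled as primary mammary epithelial cells, and the markers of that label were read beside the 5 genes. Of 38 luminal and epithelial markers 7 were in the table. Of these, 5 were lower in each of the 4 NIC/Cpt1a L/L lines, beside 38.2% of all tested genes, and 2 overlapped (median log2 difference -2.19). By edgeR 0 passed, where 6 were lower and 0 higher at an unadjusted p under 0.05, DESeq2 by line called 6 lowered and limma-voom 4. Csn3, the milk protein kappa-casein, had 191 FPKM in KO_1922, 11.6 in KO_1925, 116 in KO_2768 and 0.468 in KO_4258, against 4948 and 3895 in the controls. Elf5, a transcription factor of alveolar cells, had 5.21 to 44.7 FPKM against 88.8 and 93.8, and was highest of the 4 lines in KO_2768, the line with most Acta2, Pdgfrb and Thy1. Erbb3 had 15.3 to 26.1 FPKM against 30.5 and 39.7 and, unlike Elf5, was lowest in KO_2768. Of the 7 genes, 6 had a negative log2 difference and 1 a positive one. Epcam, Krt8, Krt18 and Cdh1 are not analysed here.

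Of 17 markers of the basal and myoepithelial layer, to which Acta2 and Tagln belong in the gland, 6 were in the table. Of these, 3 were higher in all 4 lines, beside 35.1% of all tested genes, and 3 overlapped (median log2 difference 3.6). By edgeR 0 passed, where 4 were higher and 0 lower at an unadjusted p under 0.05, DESeq2 by line called 4 raised and 1 lowered and limma-voom 1 and 0. The laminin gene Lamb3 had 62.6 to 104.6 FPKM in NIC/Cpt1a L/L and 8.15 and 32.6 in control lines (log2 difference 1.99, standard error 0.59; edgeR, adjusted p = 0.0705). Krt17, a basal keratin, had 7.24 FPKM in KO_1922, 1.92 in KO_1925, 2.06 in KO_2768 and 0.737 in KO_4258, against 0 and 0.0198 (adjusted p = 0.0536). Oxtr, the oxytocin receptor of myoepithelial cells, went the other way at 11.8 FPKM in WT_8905 and at most 1.45 in every other line. Krt5, Krt14 and Trp63 are not analysed here.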

How the data were processed

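RNA-Seq libraries of 6 tumor-derived lines were analyzed. The authors mapped reads to mm10 with STAR (v2.5) and counted them per gene with HTSeq (v0.6.1). The submitters' processing notes also name Trimmomatic, edgeR and limma. The authors deposited whole-number read counts, FPKM, and a normalized signal made by dividing counts by a size factor. The results of the authors' own comparison (log2 fold changes and p-values, raw and adjusted) stand in the same table and were not used. Library totals were recovered from counts, gene lengths and FPKM, since the table carries 33.3% to 34.6% of each library's reads. A sum of duplicates per line was tested with edgeR 4.0.16 (TMM, filterByExpr, quasi-likelihood test) in R 4.3.3, with Benjamini-Hochberg adjustment and a threshold of 0.05, after the functions were tested on simulated data. Adjusted p-values over the table are too small because its genes were selected on these libraries, and those over 49997 reference genes are an upper bound. The labels call the duplicates biological replicates of a line without naming separate cultures, and p-values measure the spread between lines. Exact permutation tests ran over the 15 assignments of lines to genotypes on log2 CPM.

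Likeness and correlations used log2 CPM with a prior count of 2. Intervals and permutation tests used scipy 1.17.1 in Python 3.11.15, and alternatives used DESeq2 1.42.0 and limma 3.58.1. The genes named are the 5 genes, the 3 most like each of them, up to 4 of highest mean FPKM per list, and every actin, platelet-derived growth factor and S100 gene of the table. Others are marked as named after their values were seen. The values of some listed genes are not reported here. The 5 genes and the lists were chosen with earlier results of these data known. Samples were grouped by the genotype field of the labels, whose titles word the allele status the other way, and promoter windows came from RefSeq on GRCm38.p6.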

Additional observations from a re-analysis of the deposited data

Results flagged for a closer look

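Of 64 named genes, 15 had 1 of the 4 NIC/Cpt1a L/L lines apart from the other 3 by Dixon's criterion. Chance gives this in about 1 group in 20, but that rate does not apply to these genes, many of which were named for their likeness to the 5 marker genes or for a high mean level that 1 line can carry. KO_2768 stood apart upward in 10 and KO_4258 in 4. Among the 5 marker genes, Pdgfrb reached 13.4 CPM in KO_2768, the next line being at 2.14, and S100a4 reached 781 CPM in KO_4258, the next being at 169. Of the stromal and vascular markers, KO_2768 had 584 CPM of Cd34 (next 3.45), 1368 CPM of Dcn (next 0.887) and 2.21 CPM of Plvap (next 0.345). KO_1922 had 0.777 CPM of Rgs5. Unlike Cd34 and Dcn, Plvap was higher in a control line, with 9.56 CPM in WT_5257. The genes chosen for their likeness to Acta2, Pdgfrb or Thy1 share the KO_2768 peak by that choice, with Gng2 at 9.77 CPM, Gypc at 19.998 CPM, P2ry6 at 32.0 CPM, Rab36 at 5.58 CPM and Rnase4 at 44.6 CPM. In KO_4258 Csf1r stood at 312 CPM (next 17.2), S100a7a at 22.8 CPM, and Rabep2, chosen for its likeness to Tagln, was lowest at 18.7 CPM (next 28.3). S100b stood at 19.8 CPM in KO_2768. These lines were compared within 1 genotype and no difference between genotypes was tested here.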

How the results depend on the processing

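No direction turned for any of the 5 genes in any alternative run. Counts of raised and lowered genes of the table, 71 and 148, were 105 and 301 with DESeq2's size factors, 55 and 93 without TMM, 57 and 82 with the deposited size factors, 90 and 252 without a filter, 948 and 1429 in DESeq2 by line, 305 and 919 in limma-voom with the line as random block, 78 and 221 with the B libraries alone, and 0 and 0 over all reference genes. With every library as a sample they were 1873 and 1680, and 1706 and 1680 with the replicate block. Leaving out 1 line at a time gave 0 to 294 raised and 0 to 347 lowered. DESeq2 by line moved Acta2 (log2 difference 4.81, adjusted p = 0.0368), Pdgfrb (7.93, 0.0101), Thy1 (8.23, 0.0210) and S100a4 (6.61, 1.39e-09) past the threshold. Counting libraries as samples in edgeR did so for Acta2 (4.204, adjusted p = 0.0229), Tagln (-1.34, 0.00632), Pdgfrb (6.92, 0.0143) and S100a4 (6.79, 0.000415), and with the replicate block for Acta2 (3.98, 0.0311), Tagln (-1.35, 0.0104), Pdgfrb (6.80, 0.0170) and S100a4 (6.79, 0.000938); in both, libraries of 1 line (voom correlation 0.955) count as independent. S100a4 also passed in edgeR with DESeq2's size factors (6.61, adjusted p = 0.0478) and without a filter (6.70, 0.0492). The adjusted p ranged over the alternatives from 0.0229 to 1 for Acta2, 0.00632 to 1 for Tagln, 0.0101 to 1 for Pdgfrb and 0.0210 to 1 for Thy1. Leaving out 1 line gave log2 differences of 3.33 to 8.62 for Acta2, -1.64 to -0.83 for Tagln, 5.62 to 10.2 for Pdgfrb, 9.05 to 9.40 for Thy1 (not fitted without KO_1922 or KO_2768, where it did not pass the filter) and 5.58 to 7.35 for S100a4; where that left 1 control line, it was assumed to vary like the other group. Thy1 also failed the filter in the 3 alternatives that take every library as a sample. DESeq2's size factors moved the median of all genes from 0.49 to 0.37. The numbers of the duplicates did not pair the libraries: A minus B differences of the lines correlated at -0.05 to 0.067 over 10 pairs. The levels in FPKM moved by less than 1 SD with TMM scaling. At 3 or fewer control reads, depth limits Acta2, Pdgfrb and Thy1 to their intervals or bounds. Causes of these shifts were not tested.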

Other observations

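Genes of transforming growth factor beta signalling, which acts on Acta2, Tagln and many matrix genes in fibroblasts, went in both directions, at shares near those of all tested genes. Of 24 listed ligands, receptors and SMADs, 10 were in the table, of which 4 were higher in all 4 NIC/Cpt1a L/L lines, 4 lower in all 4 and 2 overlapped, beside 35.1% higher and 38.2% lower of all tested genes, with a median log2 difference of -0.12. By edgeR 0 passed, where 2 were higher and 5 lower at an unadjusted p under 0.05, DESeq2 by line called 3 raised and 5 lowered, and limma-voom 2 and 3. Tgfb3, one of the ligands, had 16.9 FPKM in KO_1922, 12.8 in KO_1925, 55.9 in KO_2768 and 5.74 in KO_4258, against 172 in WT_5257 and 91.0 in WT_8905. It followed Tagln in being lower in all 4 lines and lowest in KO_4258. Tgfbr2 and Smad4 had 22.8 to 37.9 and 32.9 to 42.0 FPKM in NIC/Cpt1a L/L lines and 66.8 and 34.6, and 30.7 and 33.9, in the controls.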
